A study of Mus musculus with 16 samples.

Results

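The contactins and the contactin-associated proteins are 2 small families of neural adhesion molecules, and 9 of their genes were followed here in the mouse cerebellum: Cntn1, Cntn2, Cntn3, Cntn4, Cntn5, Cntn6, Cntnap1, Cntnap2 and Cntnap4. Their members were found as the array probes whose accession belongs to one of these genes, which gave 18 of 56605 probes. The family was chosen by its readout, the signal of a Cntn5 probe that was far brighter with NR in Atm-/- mice, so the comparison of Atm-/- NR with Atm-/- veh is described below for the members and supports nothing. Cerebellar RNA of 16 mice was hybridised to 16 one-colour Agilent arrays. There were 4 WT veh mice, 4 WT NR mice, 4 Atm-/- veh mice and 4 Atm-/- NR mice. All mice were labelled male and came from the strain B6;129S4-Atmtm1Bal/J, as wild-type mice or as homozygotes without working Atm, the kinase that is lost in ataxia telangiectasia. NR, nicotinamide riboside, is a precursor of NAD+ and was supplied with the drinking water, 3.5 mg/ml (12 mM), for 2 months from 6 weeks of age, while the veh groups drank plain water. At tissue collection the mice were 3.5 months old.

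Contactins are held on the outer face of the cell membrane by a lipid anchor and carry immunoglobulin and fibronectin domains. Contactin-associated proteins, also called Caspr proteins, span the membrane and resemble neurexins. On myelinated axons, contactin 1 and Caspr form the axonal side of the paranodal junction beside the node of Ranvier, and contactin 2 and Caspr2 gather voltage-gated potassium channels in the neighbouring juxtaparanode. Contactins 3 to 6 act mainly in axon guidance and in the choice of synaptic partners, and granule cells of the cerebellum are a known source of several of them.

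The promoters of Cntn1, Cntn2, Cntn4 and Cntn5 are shown because a probe of each passed the threshold between Atm-/- NR and Atm-/- veh. Each line gives the 250 bases before the RefSeq start that lies furthest upstream in the table (GRCm38.p6), read 5′ to 3′ on the strand of the gene. Capitals mark CCAAT or its reverse complement. The TATA box (TATAAA), the GC box (GGGCGG) and the E box (CACGTG) were searched too, on both strands and with overlaps allowed, and are not in these windows.
Cntn1, chr15:92050915-92051164, plus strand: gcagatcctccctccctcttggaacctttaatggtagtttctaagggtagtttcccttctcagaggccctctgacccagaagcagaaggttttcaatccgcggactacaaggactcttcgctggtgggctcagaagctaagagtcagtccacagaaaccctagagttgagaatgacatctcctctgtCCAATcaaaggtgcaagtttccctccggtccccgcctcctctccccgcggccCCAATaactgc
Cntn2, chr1:132542941-132543190, minus strand: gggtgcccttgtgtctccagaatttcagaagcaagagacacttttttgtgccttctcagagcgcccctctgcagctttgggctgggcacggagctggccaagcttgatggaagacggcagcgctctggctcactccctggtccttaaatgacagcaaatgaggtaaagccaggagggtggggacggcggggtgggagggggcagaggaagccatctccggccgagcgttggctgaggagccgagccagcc
Cntn4, chr6:106118515-106118764, plus strand: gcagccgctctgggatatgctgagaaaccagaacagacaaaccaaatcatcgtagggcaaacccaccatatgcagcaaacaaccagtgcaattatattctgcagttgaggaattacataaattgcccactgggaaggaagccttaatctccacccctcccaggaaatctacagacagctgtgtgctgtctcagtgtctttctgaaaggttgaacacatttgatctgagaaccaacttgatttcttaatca
Cntn5, chr9:10904776-10905025, minus strand: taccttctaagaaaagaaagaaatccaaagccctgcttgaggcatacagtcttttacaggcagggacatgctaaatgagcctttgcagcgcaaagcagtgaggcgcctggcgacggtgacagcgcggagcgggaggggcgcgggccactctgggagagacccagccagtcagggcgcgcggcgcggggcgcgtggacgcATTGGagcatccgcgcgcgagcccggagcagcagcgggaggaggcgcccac

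The Cntn5 window is 64.8% G and C with 24 CG dinucleotides, where the median over 32841 windows of that length was 52.4% with 6. The Cntn4 window shown holds 44.4% G and C and 2 CG dinucleotides, so the windows shown differ in base composition. The window of a second Cntn4 start, further downstream, holds 50% G and C and 12 CG dinucleotides. CCAAT stood in 33.9% of all windows, TATAAA in 12.4%, GGGCGG in 32.7% and CACGTG in 6.02%. Promoter windows were held for 7 of the 9 genes. Cntn5 and Atm lie on the same chromosome, with their windows 42.6 Mb apart.

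Of the 18 member probes, 16 passed the filter on dim probes and on outlier marks, and 15 of those were well above background on all 16 arrays. The probe not kept for Cntn4 (A_55_P2013893) was well above background on every array and carried an outlier mark on WT NR 4. The probe not kept for Cntn5 (A_52_P548459) was well above background on WT veh 3 alone. Every one of the 9 genes therefore had at least 1 kept probe that was measured on every array. Of the further Caspr genes, Cntnap5a and Cntnap5b had such a probe, 1 each, while Cntnap3 had none, with its 2 probes well above background on 3 arrays and on 1 array. Cntnap5c was well above background on 3 arrays of WT veh, 2 of WT NR, 4 of Atm-/- veh and 0 of Atm-/- NR, given here as detection only.

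The arrays were checked before their values were compared, and some of them stood apart. The Atm probe A_66_P114939 averaged 8.84 in WT veh and 8.59 in WT NR against 7.97 in Atm-/- veh and 7.82 in Atm-/- NR on the log2 scale, every Atm-/- array below every WT array. The second Atm probe (A_52_P400509) lay closer together, with group means from 8.77 to 9.12, and on it Atm-/- NR 2 read 9.23, above every WT array but WT veh 3 at 9.27, while the other 7 Atm-/- arrays lay below all WT arrays. On 4 arrays Y-linked genes gave no signal (replicates 1 and 4 of WT NR, 3 of Atm-/- veh and 4 of Atm-/- NR) and Xist read 6.68 to 7.80, against 2.25 to 3.34 on the other 12, although the labels give males. Markers of granule cells and of Purkinje cells were measured for 7 of 7 genes each, as fits the cerebellum. WT veh 4 stood apart by its choroid plexus markers (4 of 5 measured), whose summed signal was 306201 there and 4340 to 8365 on the other WT veh arrays. Between 34945 and 42559 probes per array were well above background. Each genotype had a slide of its own, scanned in a separate run, so genotype, slide and scan cannot be told apart. On both slides the veh arrays filled row 1 and the NR arrays row 2, so NR and slide row cannot be told apart either.

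A marker list of the forebrain, another brain region, was high on 5 arrays. Of its 5 genes used here, 4 were measured and Emx1 was dim. The summed signal was 14865 on WT veh 4, 2575 and 2213 on WT NR 2 and 3, and 1752 and 2367 on Atm-/- NR 2 and 3, while the other 11 arrays lay between 404 and 848. The raised sums outside WT veh 4 came mainly from 1 gene, the transcription factor gene Lhx2, which read 11.06 and 10.79 on WT NR 2 and 3 and 10.38 and 10.95 on Atm-/- NR 2 and 3 but 6.32 or less on the 11 low arrays. In RNA from whole tissue, a change in the number of cells of a type and a change in RNA per cell cannot be told apart.

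**Figure D1:**
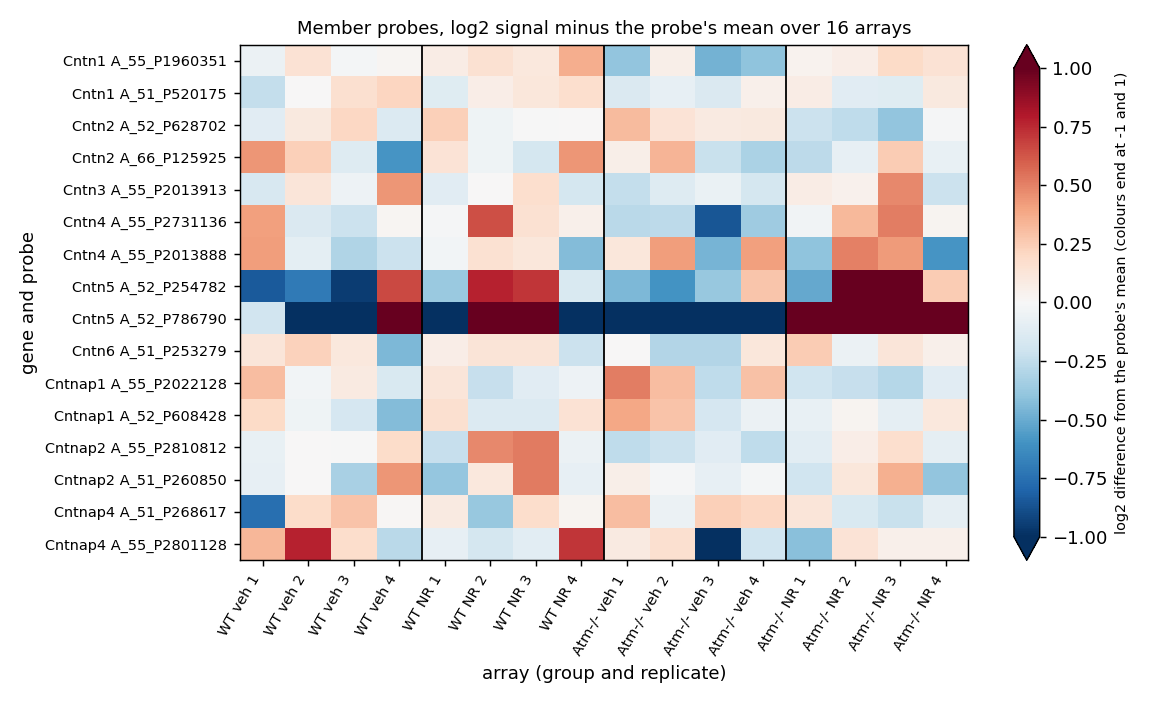
Log2 quantile-normalized signal of the 16 kept member probes (rows) on the 16 arrays (columns, 4 per group), each minus the mean of its probe over all arrays, with colours that end at -1 and 1. Both Cntn5 rows hold the strongest colours, and the rows of most other members stay close to their mean.

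The 2 kept Cntn5 probes had larger SDs than the probes of the other members. The probe A_52_P786790 had an SD over the 16 arrays of 1.86 on the log2 scale, larger than that of 99.7% of the 37253 kept probes. It is the probe that chose the family and was well above background on 7 of 16 arrays. Its SD rests on the values behind that choice, so nothing is read from its rank. The Cntn5 probe A_52_P254782 had an SD of 0.71, larger than 92.9%. The SDs of the other 14 probes ran from 0.14 to 0.46. For each gene the brightest kept probe is given first, and probes are compared with themselves across arrays, never with each other.

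Contactin 5 guides axons and synaptic targeting in sensory systems. Its brightest kept probe (A_52_P254782) read 4.77, 4.90, 4.65 and 6.27 on WT veh arrays 1 to 4 and 5.23, 6.37, 6.32 and 5.46 on WT NR arrays 1 to 4. It read 5.16, 5.01, 5.23 and 5.88 on the Atm-/- veh arrays and 5.10, 6.81, 6.68 and 5.86 on the Atm-/- NR arrays. The probe was dim, though well above background on every array. Its deposited intensity ran from 23.7 (WT veh 1) to 97.8 (WT NR 2), while the median over non-control spots ran from 111.8 to 175.7 per array. The 5 arrays above 6 were WT veh 4, WT NR 2, WT NR 3, Atm-/- NR 2 and Atm-/- NR 3, the same 5 on which the forebrain list was high, and all groups overlapped. Within each group, the arrays with a low forebrain sum reached at most 5.46 among WT mice (WT NR 4) and 5.88 among Atm-/- mice (Atm-/- veh 4). The part of the forebrain markers in the Cntn5 values was not tested.

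The probe that chose the family (A_52_P786790, listed under a predicted Cntn5 transcript) read 4.63, 3.43, 2.74 and 6.63 on WT veh arrays 1 to 4 and 3.24, 6.78, 6.68 and 3.57 on WT NR arrays 1 to 4. It read 3.42, 3.44, 3.14 and 2.25 in Atm-/- veh and 7.0, 6.07, 6.28 and 7.85 in Atm-/- NR. It was well above background on 1 array of WT veh, 2 of WT NR, 0 of Atm-/- veh and 4 of Atm-/- NR, so the Atm-/- veh readings are at background. It passed the filter through Atm-/- NR alone, the group whose signal chose it, and its readings are therefore described without a test, with counts in the tested comparisons taken over the other 15 kept probes. Among the WT mice, the 3 arrays with signal were the 3 with a high forebrain sum. In Atm-/- NR the signal was present on all 4 arrays, and the 2 brightest, replicates 1 and 4, were the arrays with a low forebrain sum. The probe A_52_P254782 read 5.10 and 5.86 on those 2 arrays, within its range in Atm-/- veh, so the 2 probes of the gene did not go together there.

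**Figure D2:**
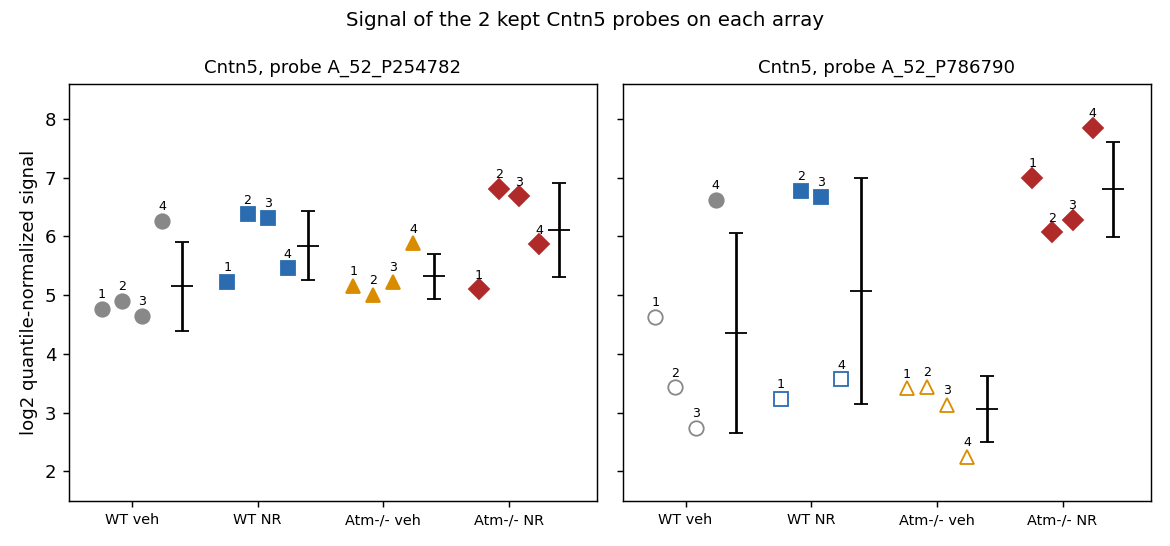
Log2 quantile-normalized signal of the 2 kept Cntn5 probes on each array, by group, with the replicate number above each point; filled points were well above background and open points were not, and the bars give the group mean ± SD of 4 arrays. Probe A_52_P786790 lies at 6.07 or higher on every Atm-/- NR array and at 3.44 or lower on every Atm-/- veh array, while the groups overlap for probe A_52_P254782.

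**Figure D3:**
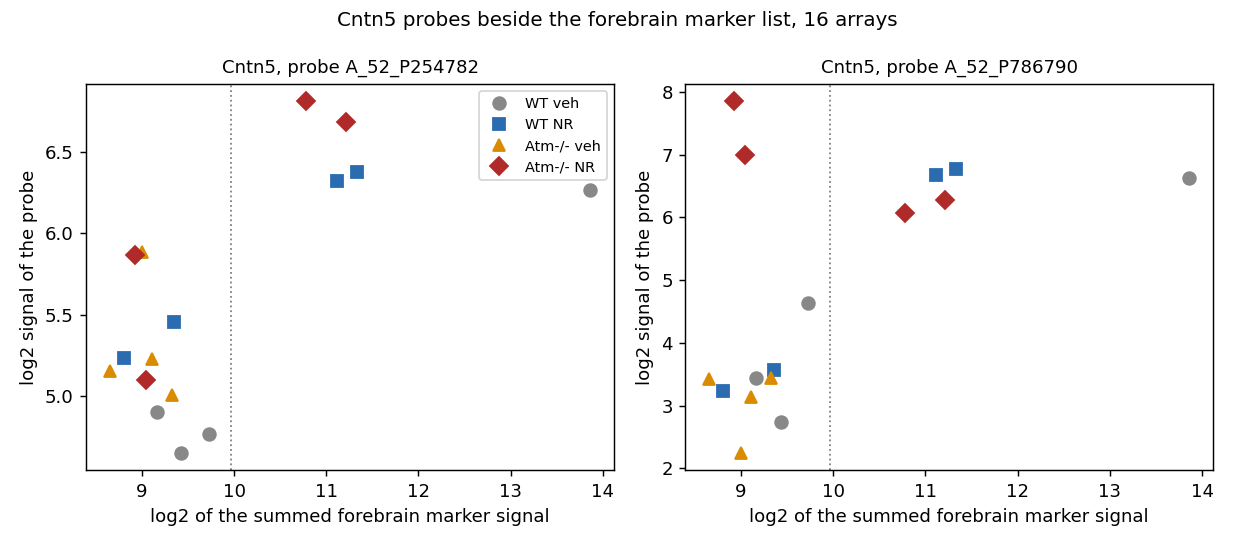
Log2 signal of each kept Cntn5 probe against the log2 of the summed signal of the forebrain marker list, 1 point per array, with a dotted line at a summed signal of 1000. For probe A_52_P254782 the 5 arrays to the right of the line are the 5 highest, and for probe A_52_P786790 the 2 highest points are Atm-/- NR arrays to the left of it.

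The first tested question was whether the members differed between WT NR and WT veh, mice with a working Atm gene. This comparison shares no arrays with the one that chose the family. No member probe passed: limma called 0 of 15 at an adjusted p under 0.05 (background 0% of all probes), 0 passed at an unadjusted p under 0.05 (background 7.62%), and the methods' t-test called 0 before adjustment (background 6.65%). The median difference was 0.04 on the log2 scale, beside -0.01 over all probes. Of the member probes 11 were higher and 4 lower, while 46.8% of all probes were higher. In 0 probes were the groups apart (background 4.09%). For Cntn5, A_52_P254782 was 0.70 (SE 0.43) higher in WT NR (limma adjusted p = 0.754). Without WT veh 4 this difference was 1.07 (SE 0.40), and on the 11 arrays with a low forebrain sum it was 0.57 (SE 0.28), neither of them called. Among those 11 arrays, WT NR is replicates 1 and 4, both without Y-linked signal. They stand against WT veh replicates 1, 2 and 3, all with it, so NR and Y-linked signal cannot be told apart there. The probe A_52_P786790 had signal on WT veh 4 and on WT NR 2 and 3 and was not well above background on the other 5 WT arrays. The other 14 probes differed by -0.17 to 0.19.

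The second question was how the members stood in Atm-/- veh against WT veh, a comparison that shares the Atm-/- veh arrays with the choice of the family. Limma called 0 of 15 probes (background 0.0537%), 2 passed at an unadjusted p under 0.05 (background 14.6%) and the methods' t-test called 2 before adjustment (background 11.7%), shares close to those of all probes. Cntn1 (A_55_P1960351), the paranodal contactin, was 0.33 (SE 0.11) lower in Atm-/- veh on the log2 scale with an adjusted p of 0.231 by limma, and its second probe (A_51_P520175) differed by -0.11 (SE 0.10). Cntn4 (A_55_P2731136), which acts in the wiring of the olfactory and visual systems, was 0.45 (SE 0.19) lower with an adjusted p of 0.300. On this Cntn4 probe every Atm-/- veh array, at 9.88 to 10.47, lay below every WT veh array, at 10.52 to 11.14. The other kept Cntn4 probe (A_55_P2013888) went the other way, 0.17 (SE 0.27) higher, and the Cntn4 probe that was not kept averaged 10.09 in Atm-/- veh and 10.12 in WT veh. The groups of Cntnap2 (A_55_P2810812), the juxtaparanodal Caspr2, did not overlap either, at 12.28 to 12.42 against 12.46 to 12.72 (difference -0.24, SE 0.15, adjusted p = 0.471). These were the 2 probes of 15 whose groups were apart (background 7.6%). The Cntn5 probe A_52_P786790 had signal on 1 of these 8 arrays, WT veh 4, so no fold is given.

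**Figure D4:**
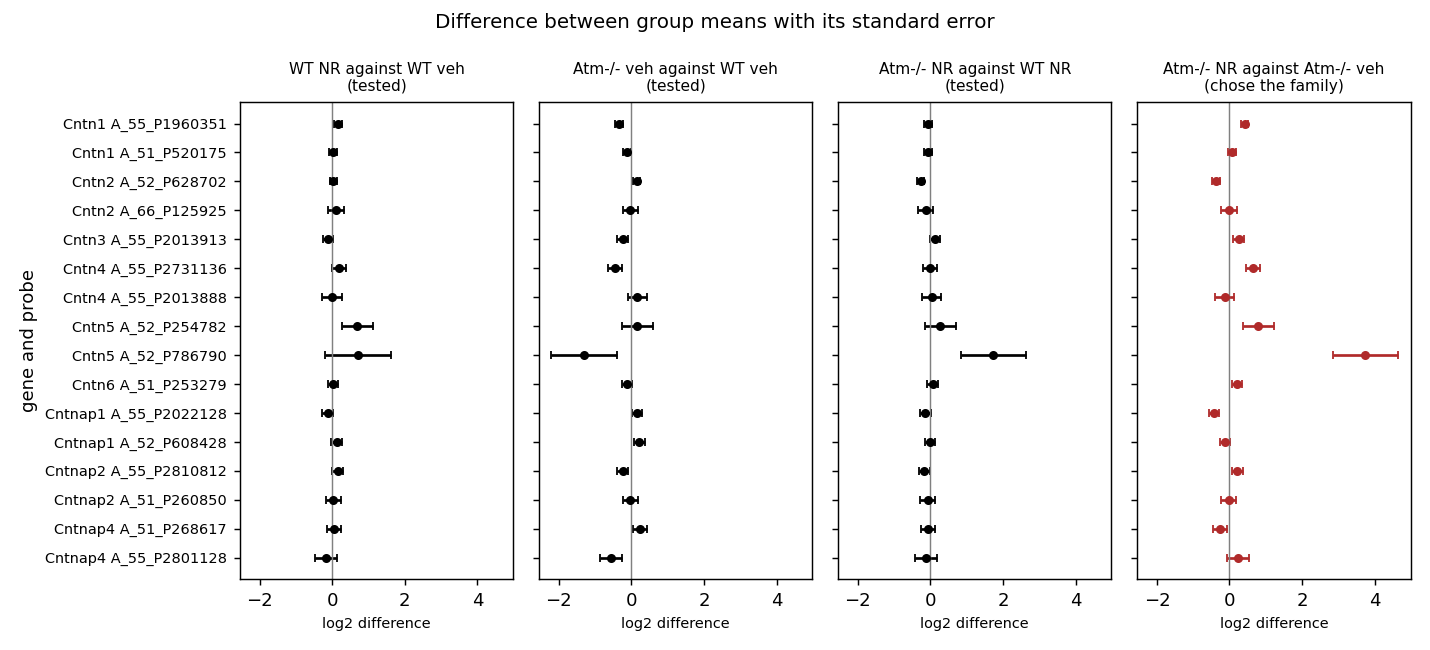
Difference between group means on the log2 scale for the 16 kept member probes, with bars of ± 1 standard error, in 4 comparisons of 4 arrays against 4. The probes of genes other than Cntn5 reach at most 0.64 in size in any panel, and the Cntn5 probe A_52_P786790 ranges from -1.30 to 3.74, with values that rest partly on arrays at background.

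The third question was how Atm-/- NR stood against WT NR, which shares the Atm-/- NR arrays with the choice. Again 0 of 15 probes were called (background 0.0537%), with 1 at an unadjusted p under 0.05 (background 5.21%) and 1 by the methods' t-test before adjustment (background 6.42%), close to the shares of all probes. The difference of Cntn2 (A_52_P628702), the juxtaparanodal contactin, was -0.27 (SE 0.10) with an adjusted p of 0.893 by limma. Groups were apart for 0 probes (background 4%), and the median difference was -0.07 beside 0.00 over all probes. The Cntn5 probe A_52_P786790 had signal on WT NR 2 and 3, at 6.78 and 6.68, within the range of the 4 Atm-/- NR arrays, and was at background on WT NR 1 and 4. Those 2 WT NR arrays are the ones of their group with a low forebrain sum and also the ones without Y-linked signal, so the forebrain sum and the Y-linked signal cannot be told apart there.

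Between Atm-/- NR and Atm-/- veh, the comparison behind the choice, limma called 4 of the 16 member probes, where 9.04% of all probes were called, and the groups were apart in 4, where 20.2% of all probes were apart. Nothing is read from these counts. The called probes were those of Cntn1, Cntn4 and Cntn5 (higher in Atm-/- NR) and of Cntn2 (lower).

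The Cntn5 probe A_52_P786790 was 3.74 (SE 0.90) higher in Atm-/- NR, with group means of 6.80 and 3.06. With dimmer Atm-/- veh readings raised to the lowest signal well above background on their array, the fold was 9.79. That floor is not an upper limit for a dim probe, so 9.79 is not a least fold. On the 11 arrays with a low forebrain sum the difference was 4.36 (SE 0.52), on the 12 arrays with Y-linked signal 3.42 (SE 0.82), and after normexp, which adds an offset that lifts dim signals, 0.93 (SE 0.28). The probe A_52_P254782 was 0.79 (SE 0.43) higher with overlapping groups, and 0.16 (SE 0.27) higher on the arrays with a low forebrain sum. That cut, chosen after seeing the data, leaves out the 5 highest arrays of this probe. Atm-/- NR 2 and 3 are among them and no Atm-/- veh array is. A smaller difference follows from the cut, so nothing is read from it. The NR effect in Atm-/- minus that in WT was 0.10 (SE 0.61) for A_52_P254782.

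Cntn4 (A_55_P2731136) read 11.14, 10.59, 10.52 and 10.75 on the WT veh arrays and 10.72, 11.37, 10.88 and 10.78 on the WT NR arrays. The Atm-/- veh arrays read 10.46, 10.47, 9.88 and 10.37 and the Atm-/- NR arrays 10.70, 11.05, 11.24 and 10.76. All 4 Atm-/- veh arrays lay below the 12 arrays of the other groups, and Atm-/- NR was 0.64 (SE 0.19) above Atm-/- veh, or 0.43 (SE 0.21) on the arrays with a low forebrain sum. Its 2 highest Atm-/- NR arrays, replicates 2 and 3, were those with a high forebrain sum. The Cntn4 probe that was not kept (A_55_P2013893) ran from 9.90 to 10.30 in Atm-/- veh and from 10.63 to 11.07 in Atm-/- NR, but 3 of its WT veh arrays read 9.68 to 9.93, so Atm-/- veh was not lower than WT veh on it. The third Cntn4 probe (A_55_P2013888) had a difference of -0.14 (SE 0.27) with overlapping groups, or -0.62 (SE 0.28) on the arrays with a low forebrain sum.

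Cntn1 (A_55_P1960351) read 16.29, 16.50, 16.34 and 16.38 on the WT veh arrays and 16.43, 16.50, 16.46 and 16.71 on the WT NR arrays. The Atm-/- veh arrays read 15.96, 16.41, 15.88 and 15.95 and the Atm-/- NR arrays 16.39, 16.42, 16.55 and 16.50. In Atm-/- veh, 3 arrays were lower than all others and replicate 2 lay among them, so the groups overlapped, with Atm-/- NR 0.41 (SE 0.11) higher. The second Cntn1 probe (A_51_P520175) differed by 0.06 (SE 0.10).

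Cntn2 (A_52_P628702), which granule cells carry while their axons grow, read 12.55, 12.76, 12.87 and 12.53 on the WT veh arrays and 12.91, 12.62, 12.66 and 12.67 on the WT NR arrays. The Atm-/- veh arrays read 12.98, 12.80, 12.76 and 12.76 and the Atm-/- NR arrays 12.45, 12.41, 12.27 and 12.65. Every Atm-/- NR array was below every Atm-/- veh array, with a difference of -0.38 (SE 0.10). The second Cntn2 probe (A_66_P125925) differed by -0.01 (SE 0.22).

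Cntnap1 (A_55_P2022128), the Caspr of the paranode, read 13.15, 12.81, 12.93 and 12.69 on the WT veh arrays and 12.96, 12.61, 12.73 and 12.79 on the WT NR arrays. The Atm-/- veh arrays read 13.35, 13.15, 12.59 and 13.14 and the Atm-/- NR arrays 12.64, 12.61, 12.56 and 12.73. Atm-/- veh 3 lay among the Atm-/- NR arrays and the other 3 above them (difference -0.42, SE 0.14). That array is 1 of those without Y-linked signal, and on the 12 arrays with it the difference was -0.61 (SE 0.12). The second Cntnap1 probe (A_52_P608428) differed by -0.12 (SE 0.14).

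Cntnap2 (A_55_P2810812) read 12.46, 12.54, 12.54 and 12.72 on the WT veh arrays and 12.30, 13.02, 13.06 and 12.48 on the WT NR arrays. The Atm-/- veh arrays read 12.28, 12.33, 12.42 and 12.28 and the Atm-/- NR arrays 12.43, 12.60, 12.70 and 12.45. Its highest array in WT veh, the 2 highest in WT NR and the 2 highest in Atm-/- NR were those with a high forebrain sum, as for the Cntn5 probe A_52_P254782. Every Atm-/- NR array lay above every Atm-/- veh array, with a difference of 0.22 (SE 0.15) that was not called, or 0.11 (SE 0.09) on the arrays with a low forebrain sum. The second Cntnap2 probe (A_51_P260850), listed under a different RefSeq transcript, differed by -0.02 (SE 0.20), or -0.28 (SE 0.13) on those low arrays, and it too was highest on the high arrays in WT veh, WT NR and Atm-/- NR.

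For the remaining members the groups overlapped between Atm-/- NR and Atm-/- veh. Cntn3 (A_55_P2013913) ranged from 9.54 to 10.25 over the 16 arrays, with Atm-/- NR 0.25 (SE 0.15) above Atm-/- veh, or 0.08 (SE 0.11) on the arrays with a low forebrain sum, and its highest arrays were Atm-/- NR 3 at 10.25 and WT veh 4 at 10.21. Cntn6 (A_51_P253279), which acts at synapses between granule and Purkinje cells, ranged from 10.67 to 11.37 with a difference of 0.21 (SE 0.15), and its lowest array was WT veh 4. Cntnap4, known from synapses of inhibitory neurons, had a bright probe (A_51_P268617) that ranged from 11.45 to 12.51 with a difference of -0.26 (SE 0.19). Its other probe (A_55_P2801128) differed by 0.25 (SE 0.30). On the low arrays these differences were -0.16 (SE 0.26) and 0.11 (SE 0.40).

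Genes that work with these proteins were counted from a list of 30, of which 29 had a kept probe and Gldn did not. They are ligands and receptors of the contactins, scaffolds, spectrins and ankyrins, and the channels of the node and juxtaparanode. In WT NR against WT veh limma called 0 of 29 (background 0% of 16737 genes), with 5 at an unadjusted p under 0.05 (background 8.84%) and 4 by the methods' t-test before adjustment (background 7.48%). The 3 with the largest differences were the sodium channel gene Scn1a at 0.37 (adjusted p = 0.490), the potassium channel gene Kcna1 at 0.33 (adjusted p = 0.540) and the adhesion gene L1cam at -0.29 (adjusted p = 0.586). In Atm-/- veh against WT veh 0 were called (background 0.0538%), with 6 unadjusted (background 16.8%) and 4 by the t-test (background 13.5%). The largest differences there were -0.58 for the potassium channel gene Kcnq3 (adjusted p = 0.451), -0.53 for the channel subunit gene Kcnab2 (adjusted p = 0.492) and -0.40 for Ptprg, a phosphatase that binds contactins 3 to 6 (adjusted p = 0.258). In Atm-/- NR against WT NR 0 were called (background 0.0597%), with 5 unadjusted (background 4.34%) and 7 by the t-test (background 7.03%). Of the 29 genes, 26 were lower and 3 higher there, while 52.8% of all genes were higher. The median difference was -0.15 beside 0.01 over all genes. The largest differences were -0.57 for Kcnq3 (adjusted p = 0.9997), -0.46 for Kcnab2 (adjusted p = 0.9997) and -0.34 for Kcna2 (adjusted p = 0.860).

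Between Atm-/- NR and Atm-/- veh, 7 of the 29 partner genes passed, where 11.5% of all genes did. Each partner gene is given by its brightest kept probe alone, and its other probes are not shown. On these probes, the pair of juxtaparanodal potassium channel genes differed in opposite directions. Kcna2 read 12.10, 11.64, 11.64 and 11.82 in Atm-/- veh and 11.14, 11.22, 11.19 and 11.17 in Atm-/- NR, a fall by 0.62 (SE 0.13, limma adjusted p = 0.0139). Kcna1 read 14.89, 15.05, 15.12 and 14.89 in Atm-/- veh and 15.28, 15.33, 15.45 and 15.48 in Atm-/- NR, a rise by 0.40 (SE 0.11, adjusted p = 0.0383). In neither gene did the groups overlap, which held for 8 of the 29 partner genes and for 26.3% of all genes. Nfasc, whose glial form binds contactin 1 and Caspr across the paranodal junction, differed by -0.44 (SE 0.10, adjusted p = 0.0189). L1cam differed by -0.46 (SE 0.11, adjusted p = 0.0238), the scaffold gene Dlg2 by -0.39 (SE 0.08, adjusted p = 0.0165) and the nodal sodium channel gene Scn8a by -0.28 (SE 0.07, adjusted p = 0.0349). App, the amyloid precursor protein and a ligand of contactins 3 and 4, differed by 0.25 (SE 0.06, adjusted p = 0.0256). These 7 differences had the same sign in all 28 other settings tried. In all 7 genes the groups did not overlap, so settings that leave out arrays could not change the sign. Fewer passed in some of these settings, in which fewer of all probes passed too. Only Kcna2 passed without Atm-/- veh 1 (adjusted p = 0.0469, with 2.31% of all probes called), only L1cam passed on the 12 arrays with Y-linked signal (adjusted p = 0.0422, with 1.18% called), and 0 passed on the 11 arrays with a low forebrain sum, where 0 probes were called. On those 11 arrays Kcna2 differed by -0.65, Kcna1 by 0.39, Dlg2 by -0.43, L1cam by -0.44, Nfasc by -0.34, Scn8a by -0.25 and App by 0.24.

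Markers of mature oligodendrocytes, the cells that form the paranode with the axon, were measured for 7 of 7 genes. Their summed signal ran from 231683 to 243956 in Atm-/- veh and from 227447 to 271406 in Atm-/- NR, with overlap, and from 193753 to 325118 in WT veh and from 282387 to 416837 in WT NR. Their part in the values of the paranodal genes was not tested.

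Of the genes closest in pattern to the Cntn5 probe A_52_P254782 over the 16 arrays, by the root mean square difference of log2 signals centred on each probe, 4 are named: Rnase6 (0.323), Lrrtm4 (0.331), Gpr45 (0.336) and Rab27b (0.344). For the probe A_52_P786790, a search added after its values were seen, the closest was D630023F18Rik at 1.13, beside an SD of 1.86 for the probe itself.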

How the data were processed

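The authors deposited scanner files written by Agilent Feature Extraction 12.0.3.1. Their intensity values are corrected for local background but, per the file headers, carry no normalization between arrays. A deposited table of z-scores (1 score per spot and array) served as an alternative. Probes were named through their accessions with RefSeq genes of GRCm38.p6, and 32994 of 56605 received a name. The arrays' own grid carries the build mm9, so coordinates were taken only from the RefSeq promoter table. Groups and replicate numbers come from the sample labels.

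Log2 values of the deposited intensity were quantile normalized, and probes well above background in at least 0.5 of their spots on all 4 arrays of a group were kept. Probes with an outlier mark on every spot of an array were set aside, leaving 37253 probes for 16737 named genes. The brightest kept probe stood for a gene. Group means were fitted with limma 3.58.1 (R 4.3.3) over all 16 arrays, with 12 residual degrees of freedom. A difference was called where the Benjamini-Hochberg adjusted p was under 0.05. The adjustment ran over all kept probes, also for the partner genes. The comparisons share arrays. For a probe below background on every array of a group, a floored fold was taken. It used, per array, the higher of the probe's own signal and the lowest signal well above background. This floor is not an upper limit. On WT veh 1 it was 4.49, and A_52_P786790 read 4.63 there without being well above background. The number of arrays limits the precision. No replicate pair held identical values.

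The members and all gene lists were chosen with earlier results of these data known. All 9 members were named with every probe, partner genes where called or by the 3 largest differences, and 5 genes by likeness to Cntn5, of which 1 is not reported here, as is 1 forebrain marker, left out of the sums. Alternatives were 75th percentile scaling, normexp with an offset of 50, the z-scores, other filters, arrays left out, a replicate block, the compared groups alone and the methods' t-test on z-scores. Those with outlier marks kept, and with only the arrays whose summed forebrain signal was under 1000, were chosen after seeing the data. The model was tested on simulated data with known answers.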

Additional observations from a re-analysis of the deposited data

Results flagged for a closer look

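In 6 of 64 groups of 4 arrays, 1 array lay far from the other 3, measured as the gap to its nearest neighbour over the range of the group and judged by Dixon's critical value for 4 samples. Chance flags about 1 group in 20. The gap was 0.857 for Cntn1 (A_55_P1960351) in Atm-/- veh, where replicate 2 was high, and 0.837 for Cntn4 (A_55_P2731136) in Atm-/- veh, where replicate 3 was low. It was 0.834 for Cntn2 (A_52_P628702) in WT NR, where replicate 1 was high, and 0.846 for Cntn5 (A_52_P254782) in WT veh, where replicate 4 was high. For Cntnap4 (A_55_P2801128) it was 0.893 in WT NR, with replicate 4 high, and 0.840 in Atm-/- NR, with replicate 1 low.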

How the results depend on the processing

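In the 3 tested comparisons, limma called 0 member probes and 0 partner genes in every alternative. Only the methods' t-test before adjustment gave more, with 2 member probes in Atm-/- veh against WT veh (11.7% of all probes) and 1 in Atm-/- NR against WT NR (6.42%), and 4, 4 and 7 partner genes in WT NR against WT veh, Atm-/- veh against WT veh and Atm-/- NR against WT NR (7.48%, 13.5% and 7.03% of all genes). Between Atm-/- NR and Atm-/- veh the count of 4 member probes changed in several settings, given here with the share of all probes called. It became 2 with no filter (6.57%), 1 on the arrays with Y-linked signal (1.18%) and 0 on the arrays with a low forebrain sum (0%). It was 2 with the replicate block (8.43%), 1 with the compared groups alone (6.77%) and 1 by the adjusted t-test (8.55%). Leaving out 1 array gave 0 to 4: 0 without Atm-/- veh 1, Atm-/- veh 4 or Atm-/- NR 3 (2.31%, 3.54% and 2.43% of all probes, against 9.04% with all arrays), 1 without Atm-/- NR 2 or 4 (4.05% and 5.35%), and 2 without WT NR 3 or Atm-/- veh 3 (7.68% and 6.12%). The 7 partner genes became 1 on the arrays with Y-linked signal, 0 on those with a low forebrain sum and 11 by the unadjusted t-test (26.9% of all probes). That share counts probes and not genes. By limma at an unadjusted p under 0.05, 27.3% of all probes and 30.5% of all genes passed in this comparison. Leaving out 1 array gave 1 to 7: 1 without Atm-/- veh 1, 2 without Atm-/- NR 3, 3 without Atm-/- veh 4 or Atm-/- NR 2, and 4 without Atm-/- NR 4. Settings with fewer arrays test fewer samples, and over all probes calls fell from 3366 to 438 on the arrays with Y-linked signal and to 0 on those with a low forebrain sum. Otherwise the cause was not tested. Same-numbered arrays do not deviate together (correlations of -0.15 to 0.20), so the numbers were not taken as pairs, and the block changed no other member count. Probe A_52_P786790 of Cntn5 was below background on 9 of 16 arrays, so its differences rest partly on background.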
